A study of Mus musculus with 24 samples.

Results

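Msh3, Msh6, Mlh3, Pms1, Pms2, Fan1, Lig1 and Ogg1 encode DNA repair proteins that have been linked to the instability of CAG repeats. They were taken by gene symbol for this known role, with earlier results of these data known but with no measured value in the rule, and all 8 were found among the 24340 genes that 6 deposited tables of striatal RNA-seq share. The mice were R6/1 mice, hemizygous for a transgene that encodes human HTT exon 1 with a long CAG repeat, and their wild type (WT) littermates, all on the C57BL/6J background. From 11 to 14 weeks of age they received intraperitoneal injections 5 times a week for 3 weeks (23 days in all), and they were sacrificed 18 h after the last one, at 14 to 17 weeks. RGFP109, an inhibitor of the histone deacetylases HDAC1 and HDAC3, was given at 30 mg/kg, and vehicle mice received the same volume of the dimethyl sulfoxide and saline solution alone. This made 4 groups, WT-vehicle with 5 libraries, R6/1-vehicle with 6, WT-RGFP109 with 6 and R6/1-RGFP109 with 7.

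Each table holds 1 FPKM value (a transcript level scaled for transcript length and sequencing depth) per group for a pair of groups. It is the authors' value over all libraries of the group. The spread between mice is therefore not in these tables, no difference could be tested, and each number below is a value of the group with no SD. Depth per library is unknown. The same group appears in 3 tables, and its values there were compared for genes with at least 1 FPKM in the group. They differed by 1 common factor (between 0.963 and 1.00) and by at most 0.00981 on the log2 scale beyond it. That spread reflects repeated quantification of the same libraries, not the variation between mice. The genotype comparison with vehicle and that with RGFP109 share no libraries, so each R6/1 to WT ratio was measured in 2 separate sets of mice.

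Mismatch repair starts with MutS complexes, which hold either Msh6 (MutSα, which binds single mismatches and short loops) or Msh3 (MutSβ, which binds longer loops such as extruded CAG repeats). MutL complexes follow, which hold Pms2 (MutLα), Pms1 (MutLβ) or Mlh3 (MutLγ). In mouse models of Huntington's disease, repeats lengthen in somatic tissue and above all in striatum, and loss of Msh3 or Mlh3 prevents most of this lengthening. Fan1, a nuclease of interstrand crosslink repair, restrains expansion. Lig1 seals nicks after repair and replication, and Ogg1 removes the oxidised base 8-oxoguanine. Repeat length was not measured in these data, which hold transcript levels only.

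The bases before the start site are shown for Msh3, the member with the highest level, and for Msh6, Mlh3 and Pms1, the members with the highest R6/1 to WT ratios. Each run is the 250 bases before a RefSeq start site, 5′ to 3′ on the strand of the gene, from build GRCm38.p6, which is mm10. Mlh3 has 2 listed start sites, and the one of lower coordinate was used, the more downstream on the minus strand. A start site need not be the end of the gene span given below. The Mlh3 window runs from 85270592, inside a span that ends at 85270647. Those of Pms1 and Msh3 also touch the ends of their spans. Capitals mark the GC box GGGCGG (bound by Sp1 family factors), CCAAT (bound by NF-Y) and TTTGGCGC (an E2F-type motif), on either strand.
Msh3, chr13:92355004-92355253 (- strand): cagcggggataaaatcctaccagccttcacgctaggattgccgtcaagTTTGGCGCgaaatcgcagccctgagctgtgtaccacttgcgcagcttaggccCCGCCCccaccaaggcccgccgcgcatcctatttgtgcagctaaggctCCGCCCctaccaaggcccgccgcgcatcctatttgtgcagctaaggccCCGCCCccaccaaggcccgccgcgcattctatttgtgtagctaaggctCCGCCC
Msh6, chr17:87974800-87975049 (+ strand): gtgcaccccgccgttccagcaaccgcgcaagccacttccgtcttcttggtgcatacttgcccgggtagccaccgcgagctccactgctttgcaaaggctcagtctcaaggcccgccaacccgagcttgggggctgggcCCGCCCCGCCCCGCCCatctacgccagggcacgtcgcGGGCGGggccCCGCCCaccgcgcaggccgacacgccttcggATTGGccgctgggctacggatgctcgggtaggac
Mlh3, chr12:85270592-85270841 (- strand): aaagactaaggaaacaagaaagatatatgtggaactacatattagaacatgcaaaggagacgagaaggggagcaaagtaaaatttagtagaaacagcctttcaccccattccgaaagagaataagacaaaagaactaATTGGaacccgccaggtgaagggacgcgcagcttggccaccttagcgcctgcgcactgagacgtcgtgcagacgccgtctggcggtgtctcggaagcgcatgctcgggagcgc
Pms1, chr1:53297029-53297278 (- strand): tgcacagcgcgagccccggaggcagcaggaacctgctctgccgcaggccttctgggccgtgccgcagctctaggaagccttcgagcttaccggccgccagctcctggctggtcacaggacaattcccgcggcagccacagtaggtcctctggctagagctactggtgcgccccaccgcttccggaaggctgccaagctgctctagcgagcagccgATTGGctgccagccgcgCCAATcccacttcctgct

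Msh3 held 4 GC boxes and the E2F-type motif, and Msh6 held 5 GC boxes, some of which overlap, and 1 CCAAT. Neither Mlh3 nor Pms1 held a GC box in this window, and they held 1 and 2 CCAAT motifs. All 8 members matched the RefSeq promoter table by symbol, with 11 start sites, of which 5 held a GC box, 6 a CCAAT and 1 the E2F-type motif. Among all 32851 promoters of the same length, 32.7% held a GC box, 33.8% a CCAAT and 0.417% the E2F-type motif, so a GC box or a CCAAT is common. The E2F-type motif was added after the data were seen, so its share is no measure of how unusual the Msh3 match is. The Msh3 window had 20 CG dinucleotides and that of Msh6 had 27, against a median of 6 over all promoters. A match is a description of the letters and no measure of binding.

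The 8 genes lie on 7 chromosomes. Spans are those of RefSeq and exon counts those of GENCODE. Msh3 spans chr13:92211878-92355004 on the minus strand and has 25 exons in its longest annotated transcript. Msh6 lies at chr17:87975050-87990892 (plus strand, 10 exons), Mlh3 at chr12:85234466-85270647 (minus, 12 exons), Pms1 at chr1:53189187-53297031 (minus, 13 exons) and Pms2 at chr5:143909901-143972745 (plus, 14 exons). Fan1 lies at chr7:64345385-64374128 (minus, 14 exons), Lig1 at chr7:13277175-13311426 (plus, 28 exons) and Ogg1 at chr6:113326972-113334877 (plus, 7 exons). Whether counting used the strand is not given in the sources used here, so reads from shared bases cannot be assigned with certainty. Exons of a neighbour on the opposite strand cover 10.6% of the exon bases of Ogg1 (Camk1), 5.79% of those of Lig1 (Zswim9) and 0.782% of those of Msh6 (Fbxo11). For Pms2, a predicted gene on the same strand, Gm42421, covers 4.85%. The RefSeq span of Pms2 runs past the quantified locus, which ended at 143931756, and past the GENCODE span, which ended at 143933968. Camk1, a calmodulin-dependent kinase, had 47.2 FPKM in WT-vehicle and 39.2 in R6/1-vehicle, far above the level of Ogg1, and its part in the Ogg1 value was not tested.

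All 8 genes were detected in every group at low to moderate levels. Their median was 5.17 FPKM in WT and 5.52 in R6/1 mice with vehicle, and 5.12 and 5.81 with RGFP109, below the median over all genes with at least 0.1 FPKM, which lay between 7.45 and 7.57. The summed level of the members was 42.1 FPKM in WT-vehicle and 45.8 in R6/1-vehicle, and 41.5 in WT-RGFP109 and 46.8 in R6/1-RGFP109. FPKM is a level per transcript length, so genes can be ordered by it. Msh3 was the highest and Mlh3 the second in all 4 groups, Fan1 the seventh and Pms1 the lowest. The middle ranks were close: Pms2 and Msh6 exchanged places in R6/1-RGFP109 (6.63 FPKM each) and Lig1 and Ogg1 in R6/1-vehicle (4.67 and 4.61 FPKM). Without a spread between mice, no order among neighbours can be called.

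**Figure D1:**
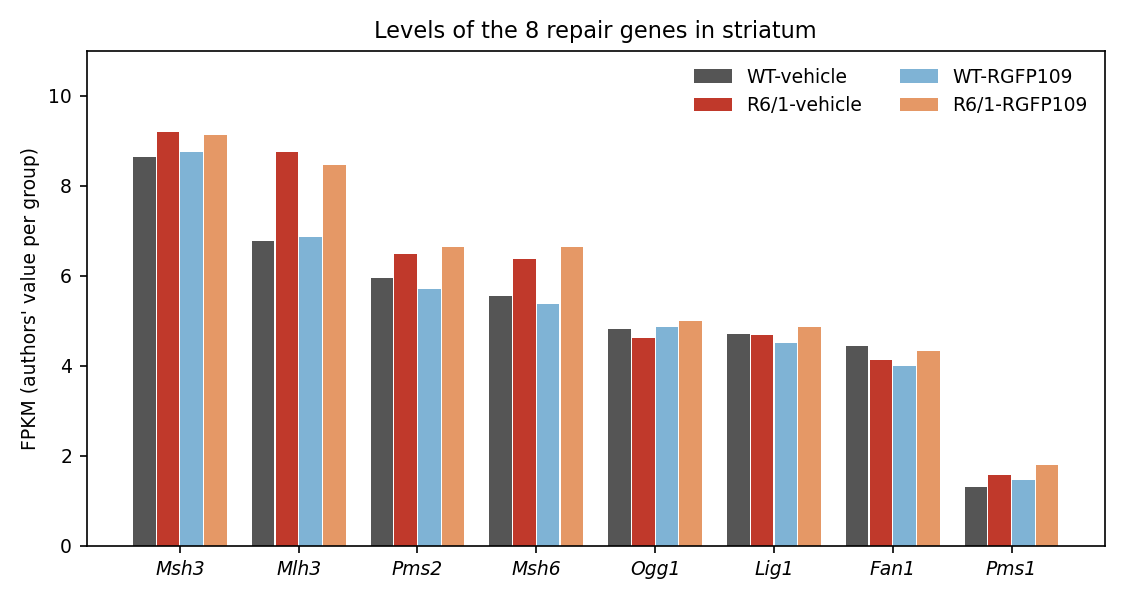
FPKM (vertical axis, the authors' 1 value per group, no error available) of each repair gene in WT-vehicle, R6/1-vehicle, WT-RGFP109 and R6/1-RGFP109, ordered by the WT-vehicle level. Msh3 is highest in each group (8.65 to 9.20 FPKM) and Pms1 lowest (1.30 to 1.80 FPKM), and the bars of both R6/1 groups stand above both WT groups for Msh3, Msh6, Mlh3, Pms1 and Pms2.

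Of the MutS partners, Msh3 had 8.65 FPKM in WT and 9.20 in R6/1 mice with vehicle, and 8.74 and 9.12 with RGFP109. This was the narrowest range of the 8 genes, 0.09 on the log2 scale between the lowest and highest group. Msh6 had 5.54 FPKM in WT and 6.37 in R6/1 mice with vehicle, and 5.37 and 6.63 with RGFP109, so both R6/1 values were above both WT values. The level of Msh3 relative to Msh6 was 1.56 in WT and 1.44 in R6/1 mice with vehicle, and 1.63 and 1.38 with RGFP109. In transcript terms MutSβ-specific Msh3 was above MutSα-specific Msh6 in each group, with a smaller ratio in both R6/1 groups.

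Of the MutL partners, Mlh3 had 6.76 FPKM in WT and 8.76 in R6/1 mice with vehicle, and 6.86 and 8.46 with RGFP109. Both R6/1 values were thus above both WT values. Pms1 had 1.30 FPKM in WT and 1.58 in R6/1 mice with vehicle, and 1.45 and 1.80 with RGFP109, the widest range of the 8 genes (0.46 on the log2 scale). Pms2 had 5.95 FPKM in WT and 6.49 in R6/1 mice with vehicle, and 5.70 and 6.63 with RGFP109. The level of Mlh3 relative to Pms2 was 1.14 in WT-vehicle and 1.35 in R6/1-vehicle, and 1.20 and 1.28 in the RGFP109 groups, so Mlh3 stood above Pms2 in each group.

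The members outside the MutS and MutL complexes had ranges of 0.11 to 0.15 on the log2 scale over the 4 groups. Fan1 had 4.43 FPKM in WT and 4.13 in R6/1 mice with vehicle, and 3.99 and 4.32 with RGFP109. Lig1 had 4.70, 4.67, 4.50 and 4.86 FPKM in the same order of groups. Ogg1 had 4.81, 4.61, 4.87 and 4.99 FPKM in that order. For none of these 3 genes did both R6/1 values lie on the same side of both WT values.

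The first comparison asked how the members differ between R6/1 and WT striatum with vehicle. Differences are given as the log2 ratio of (FPKM + 0.05), and a gene counted as past the fold above 0.5 in size with at least 0.1 FPKM in either group. None of the 8 members was past the fold, where 19.2% of all 16972 genes were (18.5% of genes with 1 to 10 FPKM). Mlh3 had the highest ratio at 0.37, which is 29.5% more FPKM in R6/1-vehicle. Pms1 stood at 0.28, Msh6 at 0.20, Pms2 at 0.12 and Msh3 at 0.09. Fan1 at -0.10, Ogg1 at -0.06 and Lig1 at -0.01 lay on the other side of 0, so that 5 of 8 members were above 0, as were 47.5% of all genes. Among all genes, 28.8% had a ratio at least as large in size as Mlh3, and 39.8% as Pms1. These shares count both directions, and past the fold 13.4% of all genes were lower and 5.84% higher. In the direction of these members, 10.03% of all genes had a higher ratio than Mlh3 and 15.39% a higher ratio than Pms1. The members' median was 0.11 against -0.02 over all genes.

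The second comparison put the same question to the RGFP109 mice, which share no library with the first. Again none of the 8 members was past the fold, against 17.1% of all 16954 genes (16.5% at 1 to 10 FPKM). Msh6, Mlh3 and Pms1 each stood at 0.30, Pms2 at 0.22 and Msh3 at 0.06. Fan1 and Lig1 stood at 0.11 and Ogg1 at 0.04, so all 8 were above 0, as were 50.0% of all genes. This was not particular to the members. Of 71 other repair and onset modifier genes, described below, 64.8% were above 0, and so were 10 of 10 proliferation markers. The members' median was 0.16, that of the 5 MutS and MutL genes 0.30, and that of all genes 0.00.

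All 5 MutS and MutL members were higher in R6/1 in both sets of mice, as were 39.2% of all 16662 genes measured in both and 42.9% of those with 1 to 10 FPKM. Fan1, Lig1 and Ogg1 had opposite signs in the separate sets, although the vehicle ratio of Lig1, -0.01, turned to 0.0016 when the genes were centred on their median. Over all genes, 80.4% kept their sign. The genotype ratio with RGFP109 less that with vehicle was largest for Fan1, at 0.21, and 26.5% of all genes differed by at least as much. For the others it lay between -0.07 (Mlh3) and 0.12 (Lig1), while the middle 95% of all genes ran from -0.70 to 0.76. These differences could not be tested.

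**Figure D2:**
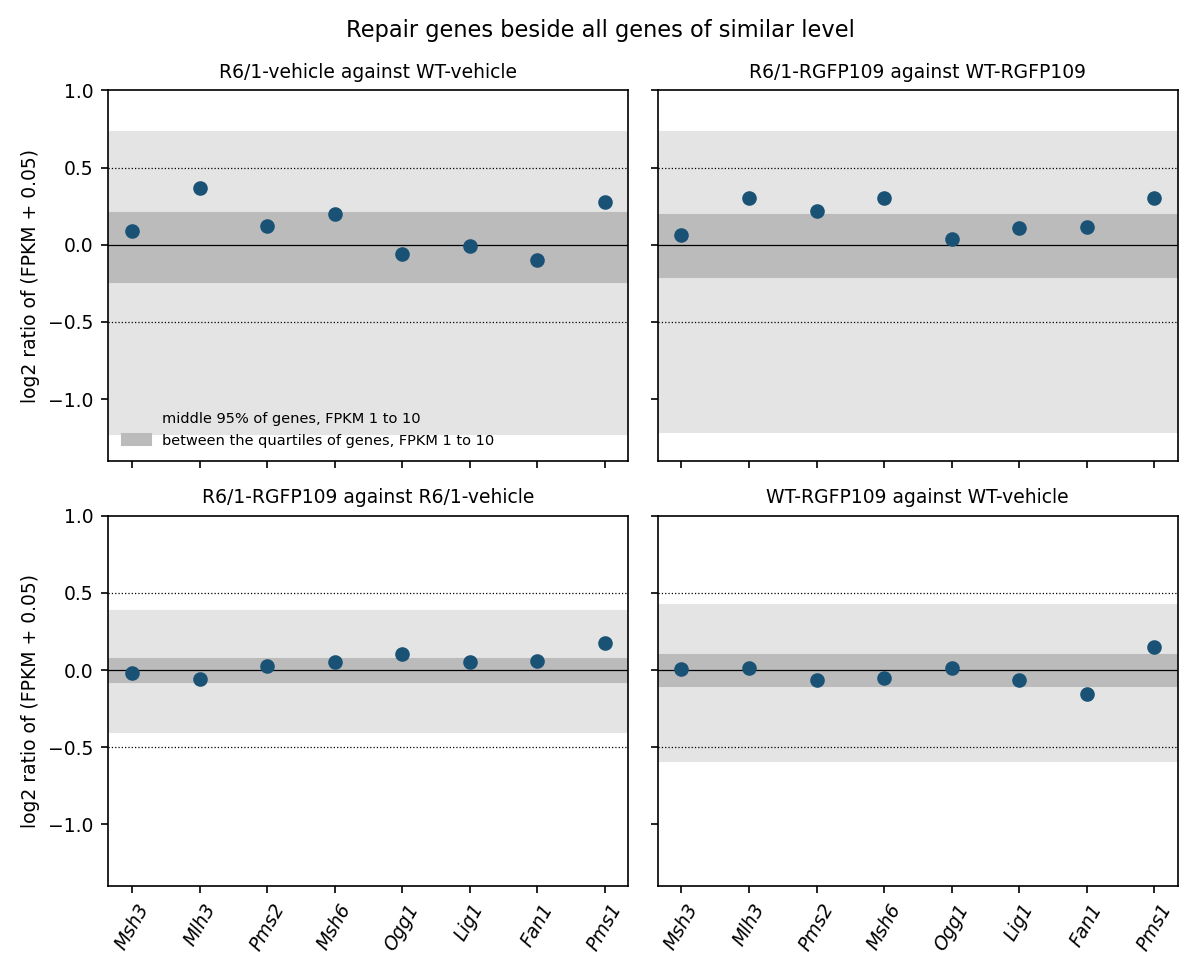
Log2 ratio of (FPKM + 0.05) of each repair gene (points) in 4 comparisons, over the range between the quartiles (dark grey) and middle 95% (light grey) of genes with 1 to 10 FPKM; dotted lines mark a log2 ratio of 0.5 in size. Mlh3 (0.37) and Pms1 (0.28) lie above the dark band in the vehicle genotype panel, and all points of all panels lie inside the light band.

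The third comparison asked how RGFP109 and vehicle differ in R6/1 mice. None of the 8 members was past the fold, and 5.77% of all 16840 genes were (3.53% at 1 to 10 FPKM). In the table of this pair, Pms1 had 1.64 FPKM with vehicle and 1.86 with RGFP109, a log2 ratio of 0.18, and 20.2% of all genes had a ratio as large in size. Ogg1 had 4.78 and 5.14 FPKM, a ratio of 0.11. The other 6 lay between -0.06 (Mlh3) and 0.06 (Fan1), with Msh3 at -0.02, or 9.53 FPKM with vehicle and 9.40 with RGFP109. Of the 8 members 6 were above 0, as were 50.6% of all genes. The members' median was 0.05 and that of all genes 0.00.

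The fourth comparison asked the same of WT mice. None of the 8 members was past the fold, and 8.11% of all 16957 genes were (5.09% at 1 to 10 FPKM). Fan1 had 4.28 FPKM with vehicle and 3.84 with RGFP109, a log2 ratio of -0.15, and Pms1 had 1.25 and 1.40 FPKM, a ratio of 0.15. Ratios as large in size were found in 30.9% and 31.1% of all genes. The other 6 lay between -0.07 (Pms2 and Lig1) and 0.02 (Mlh3), with Msh3 at 0.01, and 4 of 8 members were above 0, as were 48.0% of all genes. The RGFP109 ratios of WT and R6/1 mice share no library. They had the same sign for 2 of the 8 members, Pms1 and Ogg1, both higher with RGFP109, and for 50.5% of all genes.

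In the remaining comparisons, which share groups with those above, none of the 8 members was past the fold either. For R6/1-RGFP109 against WT-vehicle 19.2% of all genes were, and Pms1 at 0.45, Mlh3 at 0.32 and Msh6 at 0.25 had the highest ratios. For WT-RGFP109 against R6/1-vehicle 17.4% were, and Mlh3 at -0.35 and Msh6 at -0.25 had the lowest.

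Transcripts of the RGFP109 targets, Hdac1 and Hdac3, and of the related class I gene Hdac2 were also measured. Hdac1 had a genotype ratio of 0.25 with vehicle and 0.34 with RGFP109, Hdac2 of 0.26 and 0.18, and Hdac3 of 0.02 and 0.00. In the RGFP109 to vehicle comparison Hdac1 stood at -0.09 in R6/1 and -0.19 in WT mice, and none of the 3 genes was past the fold in any of these comparisons. Transcript levels do not measure enzyme activity. The mouse gene Htt had 16.9 FPKM in WT-vehicle and 19.1 in R6/1-vehicle (ratio 0.17), and 17.6 and 18.8 FPKM with RGFP109 (0.10). Whether reads from the human HTT exon 1 transgene were counted in the R6/1 values of Htt was not tested.

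The wider repair network was described with lists of other mismatch, base excision, crosslink and nucleotide excision repair genes and other genes near modifiers of Huntington's disease onset. Of its 71 measured genes, 4 were higher and 6 lower past the fold in R6/1-vehicle against WT-vehicle (14.1%), where 5.84% of all genes were higher and 13.4% lower, with a median of 0.03. In the RGFP109 mice 5 were higher and 5 lower (5.39% and 11.7% of all genes), with a median of 0.11. None of the 71 was past the fold in either comparison of RGFP109 with vehicle. In R6/1 mice 5.77% of all genes were (3.53% at 1 to 10 FPKM), and in WT mice 8.11% (5.09% at 1 to 10 FPKM).

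Among other mismatch repair genes, 1 of 17 was higher and 2 were lower past the fold with vehicle. Rfc5, a subunit of the clamp loader that places Pcna on DNA, was lower, with 6.94 FPKM in WT-vehicle and 3.73 in R6/1-vehicle (-0.89) and 6.48 and 3.92 with RGFP109 (-0.72). Exo1, the exonuclease that removes the mismatched strand, was barely detected, at 0.110 FPKM in WT-vehicle and 0.199 in R6/1-vehicle, and its ratio of 0.64 rests on these low values. With RGFP109 it had 0.144 and 0.167 FPKM, a ratio of 0.16, and none of the 17 genes was higher past the fold. Pcna itself stood at 0.22 and 0.18 in the vehicle and RGFP109 genotype comparisons.

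Of 19 base excision repair genes other than Ogg1, 1 was past the fold with vehicle. This was Tdg, a thymine DNA glycosylase, at -0.59 with vehicle and -0.60 with RGFP109 on levels near 1.1 FPKM in WT. With RGFP109 1 gene of this list was also higher past the fold, Neil3, a DNA glycosylase, at 0.87 on low levels of 0.150 FPKM in WT and 0.315 in R6/1 mice. It is named after its value was seen. Polb, the polymerase that fills the gap after base removal, had 35.3 FPKM in WT-vehicle and 27.3 in R6/1-vehicle, for a ratio of -0.37, and again -0.37 with RGFP109. Fen1, the flap endonuclease, stood at 0.02 and 0.17. Ogg1, which acts first in this pathway, had ratios of -0.06 and 0.04.

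Among 20 crosslink repair genes, the pathway of Fan1, 1 was higher and 2 were lower past the fold with vehicle. Fancd2, which recruits Fan1 to stalled forks, had 1.38 FPKM in WT-vehicle and 0.750 in R6/1-vehicle (-0.84), and 1.51 and 0.848 FPKM with RGFP109 (-0.80). Fancb, of the Fanconi core complex, had 2.55 and 1.35 FPKM with vehicle (-0.89) and stood at -0.87 with RGFP109. Brca1 was higher, at 0.68 and 0.56 on levels near 1 FPKM, and Ube2t, which conjugates ubiquitin to Fancd2, stood at 0.10 with vehicle and 0.69 with RGFP109. Of 12 nucleotide excision repair genes only Ddb2, a damage sensor, was past the fold with vehicle (-0.55), and none was with RGFP109. Of 4 other genes near modifiers of onset in people, 2 were higher past the fold in each genotype comparison. Of all genes, 5.84% were with vehicle and 5.39% with RGFP109. Rrm2b, a ribonucleotide reductase subunit, was among these 2. It had 6.22 FPKM in WT-vehicle and 9.62 in R6/1-vehicle (0.63) and stood at 0.52 with RGFP109.

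**Figure D3:**
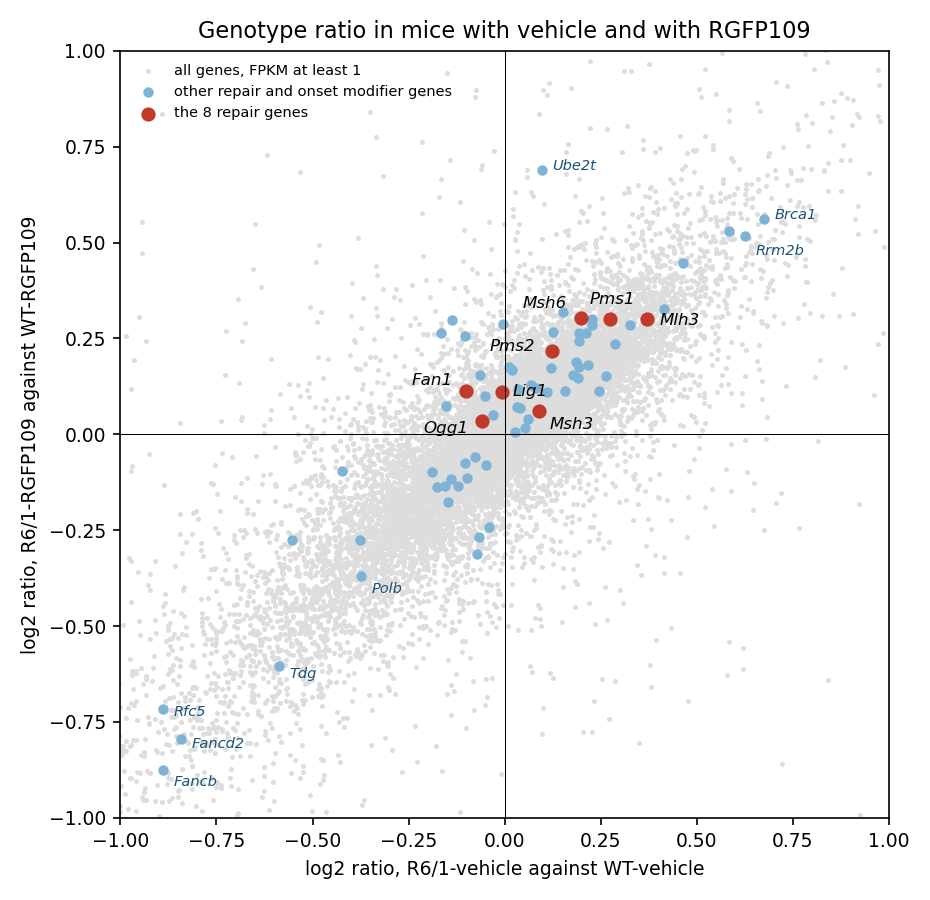
Log2 ratio of (FPKM + 0.05) of R6/1 to WT with vehicle (horizontal) and with RGFP109 (vertical) for genes with at least 1 FPKM in both pairs, 1 value per gene and axis, within -1 to 1; the 8 repair genes are red, other repair and modifier genes blue and all other genes grey. Msh3, Msh6, Mlh3, Pms1 and Pms2 lie in the upper right quadrant, Fan1, Lig1 and Ogg1 just left of it, and Rfc5, Fancb, Fancd2 and Tdg in the lower left.

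Markers of several cell types differed between groups, and in bulk samples fewer cells of a type and less RNA per cell cannot be told apart. Striatal projection neuron markers, which define the labelled tissue, summed to 3192 FPKM in WT-vehicle and 3072 in WT-RGFP109. They summed to 1231 in R6/1-vehicle and 1108 in R6/1-RGFP109, and 7 of 8 were lower past the fold in both genotype comparisons. Oligodendrocyte markers summed to 4674 FPKM in WT and 2618 in R6/1 mice with vehicle, and 3651 and 2956 with RGFP109, and astrocyte markers to 640, 448, 650 and 448. Neocortex markers summed to 343, 189, 318 and 241 FPKM in that order of groups, with 3 of 5 past the fold higher with RGFP109 in R6/1 mice. Choroid plexus markers summed to 41.0, 23.1, 15.4 and 8.64 FPKM, and 5 of 5 were lower past the fold with RGFP109 in both genotypes. Microglia markers (150 to 181 FPKM) and endothelial markers (39.0 to 48.6 FPKM) differed less, and proliferation markers, which accompany replicative use of Lig1 and Pcna, summed to 24.0, 24.4, 21.4 and 24.7 FPKM. No marker was listed at 0 in any group. The part of these markers in the values of the repair genes was not tested.

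**Figure D4:**
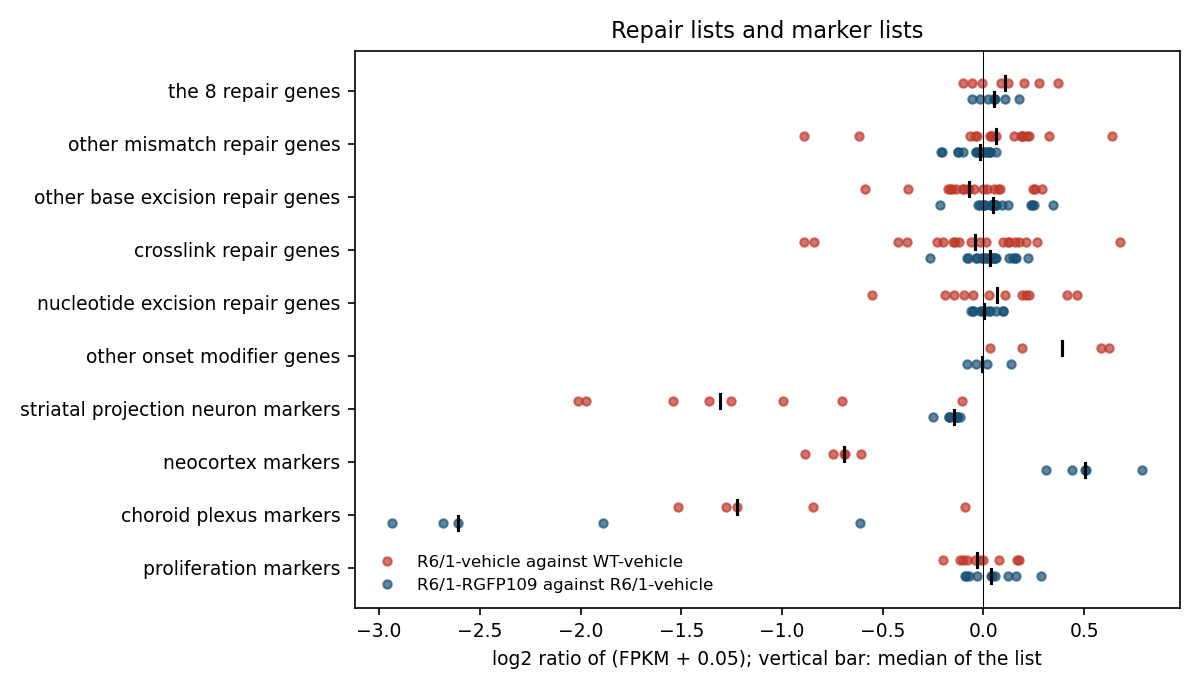
Log2 ratio of (FPKM + 0.05) of each gene (points) in repair and marker lists for R6/1-vehicle against WT-vehicle (red) and R6/1-RGFP109 against R6/1-vehicle (blue), with the median of each list as a black bar. The repair genes lie between -0.10 and 0.37 in red and between -0.06 and 0.18 in blue, while striatal projection neuron markers reach -2.01 in red and choroid plexus markers -2.93 in blue.

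Pms1, the member with the widest range, was set beside all other genes by its log2 FPKM pattern over the 4 groups. Among the nearest of 12990 genes were D030056L22Rik and Rab29, at distances of 0.0189 and 0.0239 on the log2 scale. Rab29, a small GTPase, had 2.90, 3.47, 3.26 and 4.03 FPKM in WT-vehicle, R6/1-vehicle, WT-RGFP109 and R6/1-RGFP109. Each pattern holds only 4 values, and 88 of the 12990 genes came within 0.1 of Pms1.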

How the data were processed

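RNA-seq of mouse striatum was used from 24 libraries in 4 groups. The authors made libraries with the TruSeq RNA kit, aligned 51-base single reads to mm10 with STAR 2.5.0b, used Cufflinks 2.2.1 and ran Cuffdiff 2 on each pair of groups. The 6 deposited tables hold 1 FPKM per group and gene, scaled within each table. Their columns of fold changes, test statistics, p-values and q-values are the authors' own comparisons and were not used. Values per library were not used here and depth is unknown, so no test, SD or interval is given.

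Analysis covered the 24340 genes present in all 6 tables. Each comparison was computed within its own table as the log2 ratio of (FPKM + 0.05), and levels of the 4 groups were read from the vehicle pair and the RGFP109 pair. A gene counted as past the fold above 0.5 in size with at least 0.1 FPKM in either group, and percentages of all genes use the same rule. The study used this fold limit together with a limit on q-values, which was not applied here. The FPKM limit and the pseudocount follow its gene set enrichment analysis. Members and lists were chosen with earlier results of these data known, and the E2F-type motif and the background at 1 to 10 FPKM were added after seeing the data. Named were all members, other repair genes and HDAC genes fixed with the lists, genes of the other repair lists past the fold with at least 1 FPKM, and the 3 genes nearest in pattern to the member of widest range. Results of some genes under this rule are not reported here. Positions and promoters came from RefSeq (GRCm38.p6), and exon counts and overlaps of exons from GENCODE. Python 3.11.15, numpy 2.4.6, pandas 2.3.3 and matplotlib 3.10.9 were used.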

Additional observations from a re-analysis of the deposited data

How the results depend on the processing

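No member was past the fold with a pseudocount of 0.5 FPKM or none, centring on the median, other limits on low values, the mean over 3 tables or a fold limit of 1. With an absolute log2 ratio above 0.3, 1 member was past it for R6/1-vehicle against WT-vehicle (Mlh3, where 36.6% of all genes were), 3 for R6/1-RGFP109 against WT-RGFP109 (Msh6, Mlh3 and Pms1; 32.0% of all genes), 2 for R6/1-RGFP109 against WT-vehicle (Pms1 and Mlh3; 36.1% of all genes) and 1 for WT-RGFP109 against R6/1-vehicle (Mlh3, lower; 32.7% of all genes). Of 192 recomputed member ratios, 191 moved by less than 0.1 on the log2 scale. The exception was Pms1 in R6/1-RGFP109 against WT-vehicle, 0.35 with a pseudocount of 0.5 FPKM. Only the ratio of Lig1 in R6/1-vehicle against WT-vehicle, -0.01, changed sign, to 0.0016 when centred on the median. Of 360 recomputed list medians 5 moved by more, all for choroid plexus markers with that pseudocount: -1.18 for R6/1-RGFP109 against WT-RGFP109, -1.59 for R6/1-RGFP109 against R6/1-vehicle, -1.54 for WT-RGFP109 against WT-vehicle, -2.76 for R6/1-RGFP109 against WT-vehicle and -0.75 for WT-RGFP109 against R6/1-vehicle. A larger pseudocount shrinks ratios of low genes by construction. No paired analysis was possible because the columns carry 1 value per group and no replicate number, and for the same reason no library could be left out.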
